A study of Mus musculus with 22 samples.

Results

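Committed oligodendrocyte precursors (COPs) were taken as cluster 9 of the deposited clustering of Day 5 whole cells, which held 1747 of 54890 cells (3.18%). Oligodendrocyte precursor cells (OPCs) divide, carry the platelet-derived growth factor receptor and populate the whole brain. On leaving that state they become COPs, which switch on Gpr17, Enpp6 and Bmp4, extend processes and then either mature into myelin-forming oligodendrocytes or die. In the adult hypothalamus this lineage keeps producing new oligodendrocytes. Cluster 9 was described against OPCs (cluster 5, 3814 cells) and against oligodendrocytes (clusters 2, 11 and 12, 9962 cells), whose clusters are numbered and not named in the files.

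The cells came from the hypothalamus of 12 male ob/ob mice of 11 weeks, which lack leptin in both groups, with 1 mouse per library. On the injection day 6 mice received 3 µg of fibroblast growth factor 1 (FGF1) into the lateral ventricle (icv), and 6 mice received vehicle and were pair-fed to them. Single whole cells were captured with the 10x 3' v2 kit on Day 5. The metadata place the mice in 6 batches, each with 1 FGF1 and 1 vehicle mouse. In cluster 9 a cell held a median of 1881 unique molecular identifiers (UMIs, range 763 to 6936) and 1062 genes (502 to 2855). Of its cells, 117 (6.70%) carried a barcode sequence that also occurred in another library, against 6.59% of all cells, and 3 barcode sequences occurred in cluster 9 of more than 1 library.

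The label was checked against its 5 markers, which are Enpp6, Gpr17, Fyn, Bmp4 and Tmem108. Every cell was thinned to 750 UMIs, a depth that all cells reached, so that cell types could be compared at 1 depth. A UMI of Enpp6, a choline phosphodiesterase of newly differentiating oligodendrocytes, was found in 39.9% of COPs, 0.0787% of OPCs and 1.89% of oligodendrocytes. Astrocytes, which should lack it, gave 0.103%. Gpr17, a G protein-coupled receptor that marks the passage from OPC to oligodendrocyte, was found in 74.3% of COPs and 36.2% of OPCs, but in 0.903% of oligodendrocytes and 0.626% of astrocytes. Bmp4, a secreted BMP ligand, was found in 24.0% of COPs, 0.105% of OPCs and 0.0736% of astrocytes. Fyn, a kinase needed for myelination, was found in 86.8% of COPs, 13.8% of OPCs, 5.59% of oligodendrocytes and 7.88% of astrocytes. Tmem108 was found in 49.7%, 4.09%, 1.75% and 0.405% in the same order. Without thinning, the shares in COPs were 68.0% (Enpp6), 91.1% (Gpr17), 96.4% (Fyn), 47.4% (Bmp4) and 76.8% (Tmem108), and those in astrocytes were 0.177%, 0.994%, 12.2%, 0.103% and 0.626%. The median depth before thinning was 1881 UMIs in COPs, 1242 in OPCs, 1372.5 in oligodendrocytes and 1087 in astrocytes. These shares pool cells of all mice, and 90.6% of COPs came from FGF1 mice. In thinned COPs of vehicle mice they were 36.0% (Enpp6), 78.0% (Gpr17), 78.0% (Fyn), 15.9% (Bmp4) and 31.7% (Tmem108), still above the other classes. In the lowest vehicle mouse, Bmp4 was at 6.45% and Tmem108 at 22.2%. The label therefore stands on all 5 markers. These genes took part in the clustering, so the comparisons of cell types here and in the next paragraphs are descriptions without a test.

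**Figure D1:**
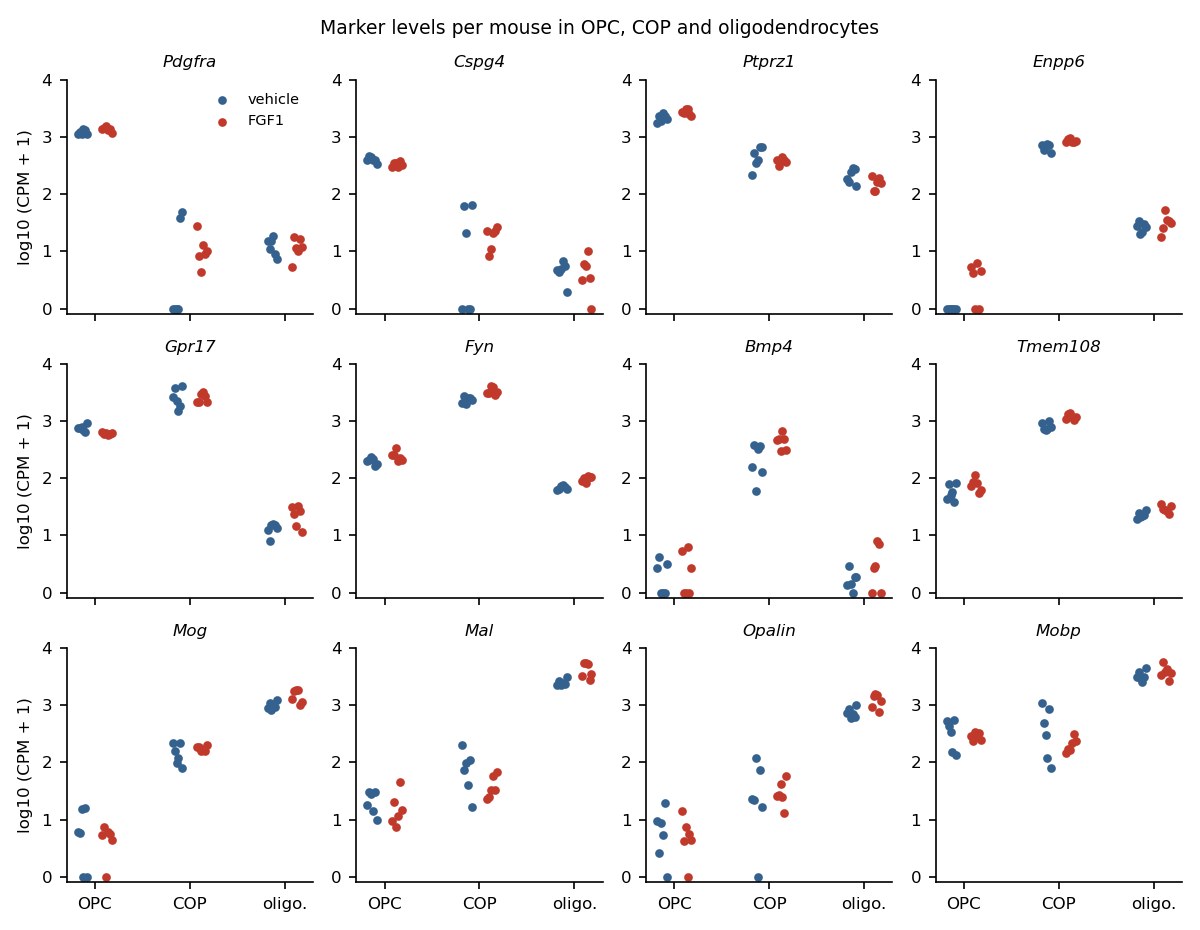
Level per mouse of 12 marker genes in OPC (cluster 5), COP (cluster 9) and oligodendrocytes (oligo., clusters 2, 11 and 12), as log10 of counts per 1000000 UMIs (CPM) plus 1, with 1 point per mouse (6 vehicle, 6 FGF1). Pdgfra falls from 1303 CPM in OPC to 12.6 CPM in COP, the 5 COP markers peak in COP, and Mog, Mal, Opalin and Mobp reach their high level only in oligodendrocytes.

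Levels were then expressed as CPM, the UMIs of a gene summed over the cells of 1 class in 1 mouse and divided by the scaled library size. They follow UMIs at the 3' end and are not per length, so they are compared here between cell types and not between genes. Pdgfra, the receptor that defines OPCs, stood at 1303 ± 140 CPM (SD, n = 12 mice) in OPCs, 12.6 ± 15.9 in COPs and 11.5 ± 4.22 in oligodendrocytes. Cspg4, the NG2 proteoglycan of OPCs, stood at 373 ± 54.3 CPM, 21.0 ± 21.7 and 3.80 ± 2.41 in the same order. Pdgfra was thus near its oligodendrocyte level in COPs, and Cspg4 was above it. Ptprz1 (2455, 427 and 186 CPM), Vcan (512, 338 and 11.9) and Gpr37l1 (685, 572 and 145), which OPCs also express, lay between the other classes. Of the 15 OPC markers, 13 were below their OPC level and above their oligodendrocyte level in COPs.

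All 14 measured COP markers had a higher mean in COPs than in OPCs and oligodendrocytes. Enpp6 stood at 1.35 ± 2.05 CPM in OPCs, 769 ± 132 in COPs and 28.8 ± 9.05 in oligodendrocytes. Gpr17 stood at 689 ± 102, 2655 ± 790 and 17.5 ± 8.13 CPM, and Fyn at 224 ± 46.4, 2899 ± 662 and 82.9 ± 17.6 CPM. Sirt2, a deacetylase found in myelin, reached 5918 ± 1642 CPM in COPs against 463 and 753. Nfasc, an adhesion protein of the paranode, reached 2814 ± 859 CPM against 102 in OPCs and 369 in oligodendrocytes. Ranked by fold over all other cells, with a level of at least 100 CPM, the leading genes of cluster 9 were 9530059O14Rik, Bmp4, Enpp6, Brca1, Tmem108, Bfsp2, Ust, Rasgef1b, Gpr17, Frmd4a and Fyn. Brca1, a DNA repair gene, stood at 282 ± 95.5 CPM in COPs, 5.77 in OPCs and 3.05 in oligodendrocytes, while the proliferation gene Mki67 had a UMI in 0.0572% of thinned COPs.

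Myelin genes were split between those already high in COPs and those not yet so. Cnp, a myelin phosphodiesterase, was at 242 ± 33.6 CPM in OPCs, 3208 ± 589 in COPs and 3400 ± 716 in oligodendrocytes, and the last 2 levels differed by less than the spread over mice. Mbp, the cytosolic myelin basic protein, was at 1692 ± 567 CPM in OPCs, 9736 ± 2744 in COPs and 7011 ± 1705 in oligodendrocytes. By contrast, Mal stood at 64.1 ± 52.1 CPM in COPs against 3400 ± 1269 in oligodendrocytes, Opalin at 36.3 ± 32.7 against 991 ± 357, Mobp at 346 ± 311 against 3637 ± 886 and Mog, a protein of the outer myelin surface, at 162 ± 44.9 against 1240 ± 376. Of the 25 oligodendrocyte markers, 22 lay between OPCs and oligodendrocytes.

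Among 42 transcription regulators of the lineage, 19 were highest in COPs by mean. Tcf7l2, a Wnt pathway factor needed for differentiation, stood at 98.6 ± 25.2 CPM in OPCs, 997 ± 335 in COPs and 62.4 ± 12.7 in oligodendrocytes. Sox4 stood at 157 ± 24.4, 782 ± 207 and 20.5 ± 5.29 CPM, Zfp488 at 41.3, 138 ± 38.7 and 21.3 CPM, and Nkx2-2 at 106, 198 ± 93.8 and 35.7 CPM. Myrf, the factor that switches on myelin genes, was at 22.6 ± 11.0 CPM in OPCs and at 283 ± 57.4 and 261 ± 34.6 in COPs and oligodendrocytes. Olig1 (1429, 549 and 530 CPM) and Olig2 (481, 283 and 121 CPM) were highest in OPCs. Summed over 25 FGF receptor and MAPK feedback genes, the level was 2707 CPM in OPCs, 619 in COPs and 1322 in oligodendrocytes. These are RNA levels, and signalling was not measured. Fgfr1 was at 18.6 ± 16.2 CPM in COPs against 78.4 ± 16.4 in OPCs, and Fgfr2 at 9.23 ± 7.85 against 201 ± 36.1 in oligodendrocytes. The summed level of 43 cytoskeleton and process growth genes was 46936 CPM in COPs, 20701 in OPCs and 22408 in oligodendrocytes.

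The first comparison between treatments was how many COPs each mouse had. In FGF1 mice 6, 7, 10, 21, 28 and 36, cluster 9 held 243, 205, 174, 327, 372 and 262 cells. In vehicle mice 20, 22, 25, 27, 29 and 35 it held 23, 51, 31, 18, 16 and 25 cells. The smallest number after FGF1 was thus above the largest number after vehicle, and 90.6% of COPs came from FGF1 mice, which gave 46.9% of all cells. As a share of the lineage cells of the mouse (clusters 9, 5, 2, 11 and 12), COPs made up 26.7 ± 8.44% (SD, n = 6, range 16.1 to 39.9) after FGF1 and 2.12 ± 0.988% (0.870 to 3.44) after vehicle. The difference of 24.6 percentage points had an exact two-sided permutation p of 0.0021645, the smallest that 924 splits of the mice can give. The share was higher in the FGF1 mouse of all 6 batches, by 14.7 to 39.0 points (exact sign permutation p = 0.03125, the smallest possible).

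**Figure D2:**
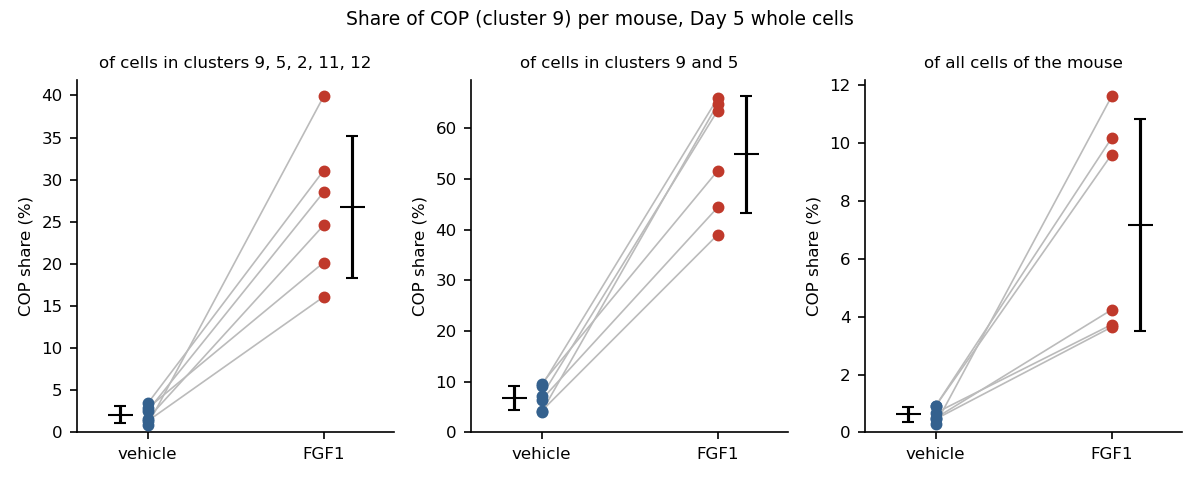
Share of COPs (cluster 9) per mouse, in percent of the oligodendrocyte lineage cells, of COPs and OPCs together, and of all cells of the mouse. Points are mice, grey lines join the FGF1 and the vehicle mouse of 1 batch, and the horizontal mark with its bar gives the mean ± SD (n = 6). On all 3 scales the lowest FGF1 mouse lies above the highest vehicle mouse.

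The difference was found with each denominator. Of COPs and OPCs together, COPs made up 54.8 ± 11.5% after FGF1 and 6.79 ± 2.37% after vehicle, and of all cells of the mouse 7.17 ± 3.68% and 0.63 ± 0.256%, with the same permutation p. Since genes that define the cluster also differed between the groups, the lineage was clustered again without 92 genes, which were those called within COPs by edgeR or DESeq2, the COP markers and Tmem2. Of 9 new clusters, 1 had more than 50% of its cells from cluster 9 and was taken for that reason. It held 1726 of the 1747 COPs among its 1732 cells, and the difference was 24.5 points. Being picked by its cluster 9 cells, it nearly repeats their share and is no separate support. It shows only that the grouping did not depend on the 92 genes. In description, OPCs made up 22.1 ± 7.23% of lineage cells after FGF1 and 28.5 ± 8.48% after vehicle, and oligodendrocytes 51.2 ± 11.3% and 69.4 ± 9.20%. Shares of 1 total are tied to each other, and cell numbers per volume of tissue were not measured. Within the oligodendrocytes, cluster 11 held 89 to 487 cells per FGF1 mouse and 17 to 56 per vehicle mouse.

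The second comparison was gene expression within COPs, for which the UMIs of cluster 9 were summed per mouse and tested with edgeR. The sums reached 428474 to 750872 UMIs in FGF1 mice and 26332 to 109276 in vehicle mice, so that the vehicle values carry the larger counting error. The median depth of a COP overlapped between the groups (1339 to 3954 UMIs after FGF1, 1369.5 to 2833 after vehicle), as did its mitochondrial and ribosomal shares. Of 4171 genes tested, 52 (1.25%) were called at a false discovery rate (FDR) below 0.05, of which 31 (0.743%) were higher and 21 (0.503%) lower after FGF1. The direction of the balance depended on the scaling, since 59.6% of the calls were higher here, 40.9% with RLE scaling (18 higher, 26 lower) and 35.5% with DESeq2 (27 higher, 49 lower). DESeq2 also called 46 of the 52 genes. At an unadjusted p below 0.05 stood 520 genes (12.5%). Mice did not overlap between the groups for 29 of the 52 genes, 23 higher and 6 lower, and for 1.94% of all genes tested. With all mice cut to 16 cells, 443 genes could be tested and 6 were called, 3 higher (Tubb2b, Tuba1a and Dynll1) and 3 lower, Mt1 among them.

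Cytoskeleton and process growth genes had 9 higher and 0 lower calls among 37 tested members, beside 0.743% higher and 0.503% lower of all genes tested. Their median log2 fold change was 0.12 against 0.02 over all genes tested (0.07 against -0.04 with RLE scaling). The calls were the tubulins Tubb2b, Tuba1a and Tubb5, the microtubule-binding proteins Map1b and Mapt, the actin genes Actg1 and Cfl1, and Fyn and Tmem108. Tubb2b (chromosome 13, 34126748 to 34130466), a tubulin of growing processes, ranged from 1435 to 2198 CPM after FGF1 (median 1814) and from 473 to 845 CPM after vehicle (median 607). Its log2 fold change was 1.49 ± 0.156 (SE, edgeR FDR 3.85e-08). Tuba1a (chromosome 15, 98949837 to 98953703) ranged from 7458 to 12219.6 CPM after FGF1 and from 3134 to 6787 CPM after vehicle, with a log2 fold change of 1.04 ± 0.152 (FDR 3.57e-04). For both genes all 6 FGF1 mice lay above all 6 vehicle mice, and the call held in every alternative run. Tubb5 (709 to 978 CPM against 200.3 to 616, log2 0.73, FDR 0.0174) and Map1b (1510 to 1856 CPM against 663 to 1322, log2 0.67, FDR 0.0104), which stabilises microtubules in processes, did not overlap between groups either. Tubulin and actin genes have near-identical relatives, and Tuba1a and Map1b overlap Gm49450 and 5330431K02Rik on the same strand. Reads that fit several genes were not counted, so their levels are uncertain.

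Promoter sequence is shown for Tubb5 and Map1b, which both rose, from the RefSeq promoter table (GRCm38.p6, 250 bases upstream of the start, written 5' to 3' on the gene's strand, minus for both). Capitals mark the searched motifs CCAAT (the box bound by NF-Y), GGGCGG (the core of an Sp1 site), TATAAA (the TATA box), ACAAAG (the core bound by Tcf7l2 and Sox factors) and CAGCTG (an E-box), each on either strand. Tubb5 lies on chr17:35838302-35838551 and Map1b on chr13:99516603-99516852.
Tubb5: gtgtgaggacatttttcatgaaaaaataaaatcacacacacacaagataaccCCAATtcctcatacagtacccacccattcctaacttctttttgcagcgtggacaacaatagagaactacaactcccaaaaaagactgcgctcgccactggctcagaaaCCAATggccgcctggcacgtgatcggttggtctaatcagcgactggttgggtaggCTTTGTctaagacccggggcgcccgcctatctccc
Map1b: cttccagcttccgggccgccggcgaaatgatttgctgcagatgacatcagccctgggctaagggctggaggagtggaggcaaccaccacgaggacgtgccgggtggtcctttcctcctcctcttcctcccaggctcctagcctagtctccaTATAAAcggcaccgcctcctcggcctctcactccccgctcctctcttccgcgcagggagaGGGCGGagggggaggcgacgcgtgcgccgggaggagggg
The Tubb5 window held 2 CCAAT boxes and 1 ACAAAG on the other strand, and the Map1b window held 1 TATAAA and 1 GGGCGG, so these promoters shared none of the 5 motifs. The window of Tuba1a, not shown because most of it lies within the annotated gene, held 1 match to the CCAAT box and 1 to the Sp1 core. The last bases of the Tubb5 window also lie within its annotated gene, which reaches position 35838306. CCAAT occurred in 34.2% of all 27025 promoters of this length, in 36.3% of the 3237 promoters of tested genes, in 13 of 24 promoters of genes called higher and in 7 of 18 of genes called lower. GGGCGG occurred in 32.7%, 61.4%, 15 of 24 and 7 of 18. TATAAA occurred in 12.9%, 5.62%, 1 of 24 and 0 of 18. ACAAAG occurred in 16.7%, 11.6%, 3 of 24 and 2 of 18, and the E-box in 12.9%, 10.0%, 2 of 24 and 4 of 18.

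Mapt, the microtubule-associated protein tau, was at 1040 ± 148 CPM after FGF1 and 665 ± 193 after vehicle (log2 0.66, edgeR FDR 0.0287). Actg1, a cytoplasmic actin, was at 2277 ± 223 and 1480 ± 319 CPM (log2 0.60, FDR 0.0174), and Cfl1, which severs actin filaments, at 1980 ± 303 and 1201 ± 241 CPM (log2 0.72, FDR 0.00571). Dynll1, a dynein light chain outside the list, was at 3777 ± 289 and 2338 ± 497 CPM (log2 0.68, FDR 0.00300). These calls depended on single mice. With the same genes tested and 1 mouse left out, the list had 5 calls without vehicle 25, 6 without FGF1 7, FGF1 10 or vehicle 22, and up to 10 without vehicle 27. With the low-count filter set anew and 1 FGF1 mouse left out, fewer genes were tested, and Tubb5 (FDR 0.0568 to 0.104) and Map1b (FDR 0.0535 to 0.0832) lost their call without FGF1 6, 7, 10, 21 or 36, as did Actg1 (FDR 0.0663 to 0.106), Mapt (FDR 0.0552 to 0.141) without each FGF1 mouse in turn, and Cfl1 (FDR 0.0542 to 0.0663) without FGF1 6, 7 or 21. On the same genes, Mapt lost its call in 7 of 12 fits and Actg1 in 4. RLE scaling left 6 calls, since Fyn, Tmem108 and Mapt then missed the threshold.

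Of 13 tested COP markers, 4 rose (Fyn, Tmem108, Bcas1 and Sirt2) and none fell, beside 0.743% higher and 0.503% lower of all genes tested. Their median log2 fold change was 0.41, against 0.02 over all genes tested. Fyn and Tmem108 were also among the cytoskeleton calls above. Of the cells in cluster 9, 90.6% came from FGF1 mice. Genes that mark the pooled cluster can therefore lean towards those higher after FGF1, and nothing is concluded from the count of this list. Sirt2 ranged from 5992 to 8472 CPM after FGF1 (median 7417) and from 3927 to 4754 after vehicle (median 4585), with a log2 fold change of 0.71 ± 0.118 (edgeR FDR 5.18e-04). Its groups did not overlap, and the call was lost only with all mice cut to 16 cells (FDR 0.0934). Bcas1, which marks early myelinating cells, was at 2422 ± 273 CPM after FGF1 and 1620 ± 200 after vehicle (log2 0.56, FDR 0.0172). Fyn was at 3416 ± 493 and 2382 ± 284 CPM (log2 0.52, FDR 0.0279), and Tmem108 at 1204 ± 128 and 813 ± 121 CPM (log2 0.58, FDR 0.0277). Fyn (FDR 0.0736 to 0.0973) lost its call without FGF1 10, FGF1 21, vehicle 20 or vehicle 25. Tmem108 (FDR 0.0533 to 0.106) lost it without FGF1 7, FGF1 10, FGF1 36, vehicle 22 or vehicle 25, and Bcas1 (FDR 0.0539) without vehicle 20, with the same genes tested each time. With the filter set anew, Fyn (FDR 0.0935 to 0.205) and Tmem108 (FDR 0.0777 to 0.118) lost it without FGF1 6, 7, 10, 21 or 36, and Bcas1 (FDR 0.0628 to 0.104) without FGF1 7, 10, 21 or 36. RLE scaling left Sirt2 and Bcas1, and Tmem108 missed the threshold with batch as a term (FDR 0.0512).

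The defining markers Enpp6, Gpr17 and Bmp4 were not called in the fit without batch. Enpp6 ranged from 811 to 984 CPM after FGF1 and from 521 to 761 after vehicle, with no overlap (log2 0.41, FDR 0.199), and was called without the low-count filter (log2 0.75, FDR 0.00187). Calls of that run are not read as support, since its whole scale lay higher. Its median log2 fold change over all genes was 0.32, against 0.02 in the main fit, and Gpr17 moved from -0.11 to 0.21. Bmp4 ranged from 299.8 to 662 CPM and from 59.1 to 386 CPM (log2 0.95, FDR 0.256), but it was called with batch as a term (log2 1.00, FDR 0.0155), without the low-count filter (FDR 1.39e-06) and without vehicle 22 (FDR 0.0274). Gpr17 ranged from 2168 to 3293 CPM after FGF1 and from 1523 to 4183 CPM after vehicle, so the vehicle mice spanned the FGF1 mice (log2 -0.11, FDR 0.868). The sum over the COP markers was 20192 to 25079 CPM after FGF1 and 15266 to 18548 CPM after vehicle, and its part in the other higher calls was not tested. Oligodendrocyte markers overlapped between the groups (40480 to 49481 CPM against 18215 to 51097), with 0 of 14 tested members called by edgeR or DESeq2 and 5 at an unadjusted p below 0.05 (12.5% of all genes tested). OPC markers overlapped too (1908 to 2575 against 1520 to 3236). Of these, 1 of 7 was called, the lower gene Cacng4, beside 0.503% lower of all genes tested. Without vehicle 27 and 29, a run chosen after seeing the data, 2 of 10 tested OPC markers were lower, with a median log2 fold change of -0.44. In that run 23 of all 6249 genes tested were lower, and the median over all of them was 0.03. In the main fit the median of the 7 tested OPC markers was 0.007.

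**Figure D3:**
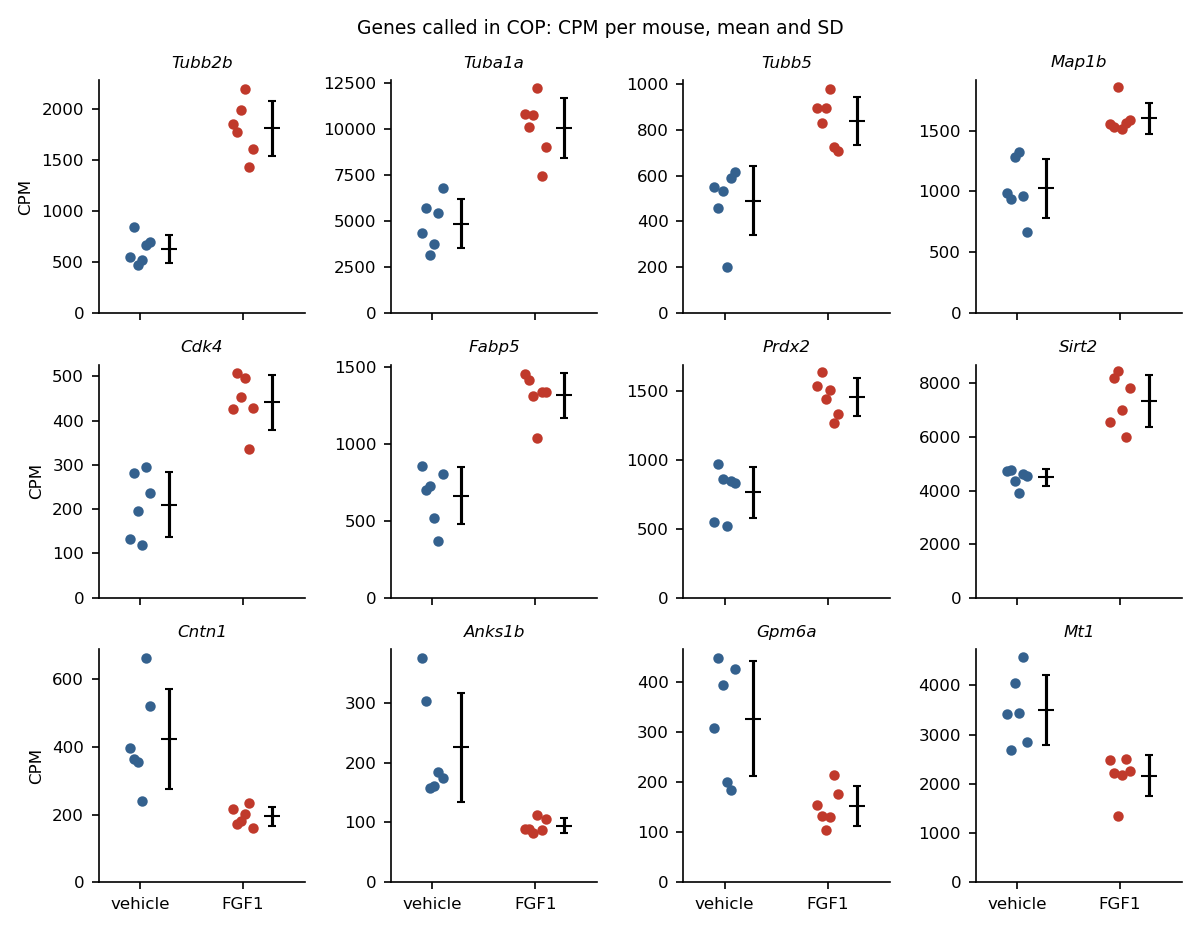
CPM per mouse in COPs for 12 genes called between FGF1 and vehicle, with the mean ± SD beside the 6 mice of each group. Each axis starts at 0. The upper 8 genes were higher after FGF1, without overlap of the mice, and Cntn1, Anks1b, Gpm6a and Mt1 were lower.

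Cdk4, Fabp5, Prdx2 and Rab33a were also higher after FGF1. Cdk4, the kinase that drives cells through G1, ranged from 335 to 507 CPM after FGF1 and from 120.2 to 295 after vehicle (log2 1.00 ± 0.201, edgeR FDR 0.00518). It was the only call among 4 tested cell cycle genes, beside 0.743% higher of all genes tested. Fabp5, a fatty acid-binding protein, ranged from 1039 to 1453 CPM against 369 to 859 (log2 0.93 ± 0.156, FDR 5.18e-04). It was the only one called of 22 fatty acid and myelin lipid genes (0.743% higher of all genes tested), whose median log2 fold change was -0.15. Prdx2, a peroxiredoxin that removes hydrogen peroxide, ranged from 1269 to 1639 CPM against 521 to 970 (log2 0.89 ± 0.149, FDR 5.18e-04). In all 3 genes the mice of the groups did not overlap. Rab33a, a small GTPase of vesicle traffic, was at 403 ± 75.4 CPM after FGF1 and 202 ± 31.8 after vehicle (log2 0.97, FDR 0.00640). Cdk4 and Rab33a kept their call in every alternative that could test them. Fabp5 and Prdx2 lost it only with all mice cut to 16 cells (FDR 0.452 and 0.150).

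Further increases were those of Fkbp15 (465 ± 109 CPM against 200.1 ± 87.6, log2 1.11, edgeR FDR 0.00946), Cdv3 (263 ± 28.4 against 123 ± 55.4, log2 0.97, FDR 0.0241) and Susd4, a complement regulator (350.1 ± 54.3 against 198 ± 68.9, log2 0.89, FDR 0.0241). Cd9, a tetraspanin, rose from 1943 ± 702 to 3432 ± 657 CPM (log2 0.78, FDR 0.0322) and S100b, a calcium-binding protein, from 2171 ± 490 to 3109 ± 324 CPM (log2 0.51, FDR 0.0413). These last genes were the calls among 11 tested reactive and immune genes, beside 0.743% higher of all genes tested. Both missed the threshold with RLE scaling, S100b also with batch as a term (FDR 0.0502). With the same genes tested, Susd4 lost its call in 5 of the 12 fits with 1 mouse left out, Cd9 in 6, S100b in 8 and Cdv3 in 3, while Fkbp15 lost it only with the filter set anew and without FGF1 6 (FDR 0.0552). The highest fitted increases rested on few vehicle UMIs. Dusp19 had 3 vehicle UMIs and 159 FGF1 UMIs, a ratio of 5.20 per UMI sequenced (95% exact counting interval 1.75 to 25.5). Pde9a had 5 and 202 (3.97, 1.67 to 12.3) and Creb3 had 7 and 224 (3.14, 1.5 to 7.90). DESeq2 called neither Creb3 nor, for want of an adjusted p, the other genes. With batch as a term, Dusp19, Pde9a and Creb3 missed the threshold of edgeR (FDR 0.0602, 0.0502 and 0.0700), as did Pde9a and Creb3 with RLE scaling (FDR 0.0570 and 0.0605). On the same genes with 1 mouse left out, Dusp19 and Pde9a lost their call in 7 of 12 fits each and Creb3 in 11. Dusp19 overlaps Nup35 on the same strand.

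Of 26 tested adhesion, axon guidance and receptor genes, 2 were lower (Cntn1 and Sema6a) and 0 higher by edgeR, with a median log2 fold change of -0.07. Of all genes tested, 0.503% were lower and 0.743% higher. Cntn1 (chromosome 15, 92051165 to 92341967), a contactin of the cell surface, ranged from 162 to 235 CPM after FGF1 (median 192) and from 240.4 to 664 CPM after vehicle (median 381). Its log2 fold change was -1.11 ± 0.188 (edgeR FDR 5.31e-04). Anks1b ranged from 82.5 to 113 CPM against 158 to 374 (log2 -1.32 ± 0.230, FDR 6.34e-04). For Cntn1 and Anks1b all FGF1 mice lay below all vehicle mice. Gpm6a, a membrane glycoprotein of growing processes, ranged from 104 to 215 CPM against 184 to 448, with an overlap (log2 -1.23 ± 0.213, FDR 6.34e-04). These 3 genes kept their call in every alternative that could test them. Arhgef3, an activator of RhoA, ranged from 5.43 to 25.6 CPM after FGF1 and from 59.1 to 184 CPM after vehicle (log2 -2.36 ± 0.473, FDR 0.00518), and also kept its call. It rested on few UMIs, 44 in all FGF1 mice and 23 in all vehicle mice.

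Mt1, a metallothionein induced by glucocorticoids and zinc, ranged from 1354 to 2501 CPM after FGF1 and from 2690 to 4571 after vehicle, with no overlap (log2 -0.68 ± 0.145, edgeR FDR 0.00946). It was the call among 7 tested glucocorticoid-responsive genes, beside 0.503% lower of all genes tested. Mt1 lost the call without vehicle 25 (FDR 0.0937) or vehicle 29 (FDR 0.0714), without vehicle 27 and 29 together (FDR 0.101) and without the low-count filter (log2 -0.33, FDR 0.256), each time with more genes tested. Mt2, of the same list, stood at 554 ± 154 and 988 ± 316 CPM (FDR 0.0514). It was called by DESeq2 (FDR 0.0232), with batch as a term (FDR 0.0333) and in 7 of the 24 fits with 1 mouse left out (FDR 0.0193 to 0.0473). Cacng4, an auxiliary protein of AMPA receptors and OPC marker, was at 90.5 ± 21.0 and 214 ± 144 CPM (log2 -1.43, FDR 0.00627), and lost the call without vehicle 22 (FDR 0.0718). Ramp1, a receptor modifier, was at 106 ± 31.1 and 293 ± 169 CPM (log2 -1.63, FDR 0.00743), Ccdc134 at 37.5 and 110 CPM (log2 -1.61, FDR 0.00596) and Alcam, an adhesion molecule, at 56.1 and 116 CPM (log2 -1.24, FDR 0.0227). In these genes the groups overlapped. With the same genes tested, Ramp1 lost its call without vehicle 22 (FDR 0.0520), Ccdc134 without vehicle 35 (FDR 0.0511) and Alcam without vehicle 22 or 35 (FDR 0.0522 to 0.251), and Alcam also with batch as a term (FDR 0.0565). Itih3, Nkain4, Cldn10, Tnk2, Kndc1 and Sema6a, a semaphorin, were lower (log2 -1.18 to -1.56), with overlapping groups, and each lost its call without 1 of several mice (same genes, 2 to 7 of 12 fits), Tnk2 also with batch as a term (FDR 0.0502).

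Levels of the called genes were also compared between cell types. Of the 21 lower genes, 11 had a higher level in an astrocyte cluster than in cluster 9 (29.8% of all genes tested), among them Mt1, Itih3, Nkain4, Cldn10 and Gpm6a, and 15 had a higher level in OPCs (43.9% of all genes tested). None of the 31 higher genes did in either case. The cluster 9 level was pooled over its cells, of which 90.6% came from FGF1 mice. Genes called lower after FGF1 are thus low in it by selection, and genes called higher are high. These counts were therefore partly set in advance, and nothing is concluded from them. By the vehicle mean, Tnk2 (95.1 CPM) was above OPCs (72.5) and astrocyte cluster 1 (70.6), and Creb3 (24.4 CPM) was below OPCs (39.8). The order did not change for other named lower genes. Gpm6a (327 CPM against 807 in OPCs), Cntn1 (423 against 973) and Cacng4 (214 against 634) stayed below OPCs by the vehicle mean. So did Ramp1, Alcam, Nkain4, Itih3, Mt1, Anks1b and Cldn10. The summed level of 10 astrocyte markers in COPs was 756 to 1865 CPM after FGF1 and 1310 to 2838 CPM after vehicle, and no marker of this list was at 0. The astrocyte gene Slc1a2 had a UMI in 23.1% of thinned COPs pooled over FGF1 mice (15.5 to 30.9% per mouse) and 34.8% of those of vehicle mice (23.5 to 51.6%), which overlapped, against 91.1% of astrocytes, 45.9% of microglia and 60.1% of OPCs. Summed microglia markers were 115 to 383 CPM and 98.5 to 1253 CPM, and neuron markers 371 to 1062 and 479 to 1872 CPM. None of 6, 2 and 5 tested astrocyte, microglia and neuron markers was called by edgeR, DESeq2 or with RLE scaling, and 3, 0 and 0 had an unadjusted p below 0.05 (12.5% of all genes tested). Their median log2 fold changes were -0.59, -0.98 and -0.71. The part of this RNA in the lower calls was not tested.

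Other gene groups gave few or no calls in COPs. Of 30 tested transcription regulators 0 were called, with a median log2 fold change of 0.03 (-0.03 with RLE scaling), and 5 had an unadjusted p below 0.05, against 12.5% of all genes tested. Olig1 stood at 478 ± 101 CPM after FGF1 and 620 ± 140 after vehicle, Sox10 at 471 ± 48.9 and 430 ± 89.9, Myrf at 256 ± 20.7 and 309 ± 71.8, and Tcf7l2 at 848 ± 150 and 1147 ± 413. Among 14 tested oligodendrocyte markers, likewise 0 were called in this fit, with Mbp at 11295 ± 2055 and 8177 ± 2551 CPM. Of 13 tested BMP, Wnt and Notch genes 1 was called, which was the lower gene Cntn1, beside 0.503% lower of all genes tested. Of 3 tested FGF receptor and MAPK feedback genes 0 were called, of which Spred1 stood at 176 ± 13.6 and 200 ± 54.4 CPM. Cholesterol synthesis (15 tested), immediate early (5), heat shock (16), insulin and IGF (6), ribosomal protein (83) and mitochondrially encoded genes (13) had 0 calls by edgeR, DESeq2 and RLE scaling. Among them, 7 heat shock genes (median log2 0.40) and 26 ribosomal protein genes (median 0.19) had an unadjusted p below 0.05 (again beside 12.5% of all genes tested), as did 1 cholesterol gene, and Hsp90ab1 stood at 1562 ± 180 and 1052 ± 283 CPM (FDR 0.0634). No tested gene of the FGF receptor and MAPK feedback, immediate early, insulin and IGF or mitochondrially encoded lists had an unadjusted p below 0.05.

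The third comparison was whether the FGF1 effect differed between COPs and their neighbours of the same mice. Against OPCs, the difference of effects was called for 31 of 4171 genes (0.743%), 15 more positive (0.360%) and 16 more negative (0.384%) in COPs. Fabp5 led, with a log2 fold change of 0.93 in COPs and -0.30 ± 0.133 (FDR 0.238) in OPCs, a difference of 1.18 ± 0.157 (interaction, edgeR FDR 9.49e-08). Its OPC level was 293 ± 54.1 CPM after FGF1 and 367 ± 67.5 after vehicle. S100b differed by 0.83 ± 0.118 (FDR 3.18e-07), with -0.30 in OPCs, and Tubb2b by 1.05 ± 0.154 (FDR 9.70e-07), with 0.39 in OPCs. Cntn1 differed by -1.30 ± 0.184 (FDR 3.18e-07), with 0.22 in OPCs, and Gpm6a by -1.23 ± 0.199 (FDR 1.43e-05), with 0.00 in OPCs. Of 37 tested cytoskeleton genes, the difference against OPCs was called for 4 in the positive and 2 in the negative direction. Map1b (0.86, FDR 3.00e-04), Mapt (0.83, FDR 0.00164) and Tuba1a (0.52, FDR 0.0426) were among the former. Tuba1a was also higher after FGF1 in OPCs (log2 0.52, FDR 0.0142) and in oligodendrocytes (log2 0.65, FDR 0.0151), and Mapt in oligodendrocytes (log2 0.46, FDR 0.0444). The oligodendrocyte clusters 2, 11 and 12 were mixed in different shares in the groups. Their levels were 648, 1140 and 807 CPM for Tuba1a and 731, 1097 and 859 CPM for Mapt. The part of this mix in the changes given for oligodendrocytes was not tested. The difference was not called for Cdk4 (0.41 ± 0.223, FDR 0.518) or Fyn (0.27 ± 0.143, FDR 0.506). After FGF1, Cdk4 was also higher in OPCs (log2 0.63, FDR 0.0204) and oligodendrocytes (log2 0.52, FDR 0.0386), and Fyn in oligodendrocytes (log2 0.54, FDR 0.0120). Other calls in COPs were also called in a neighbour in the same direction. Cd9 rose in both classes, and Cfl1 and Prdx2 in OPCs. Itih3 and Cldn10 fell in both, Tnk2 in OPCs, and Ramp1 and Nkain4 in oligodendrocytes. Anks1b went the other way, with a rise in oligodendrocytes.

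**Figure D4:**
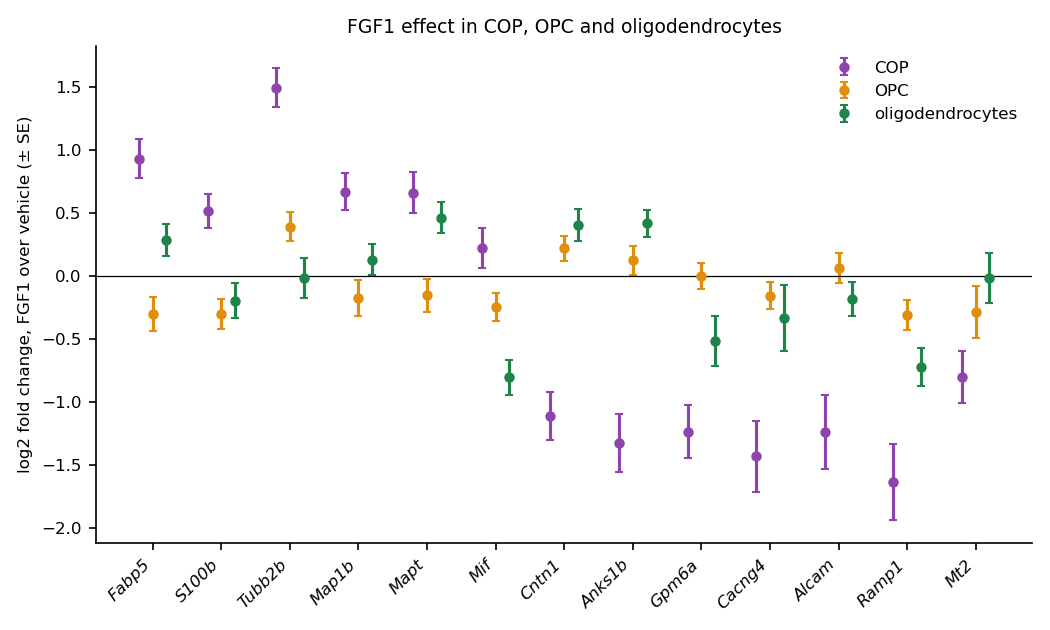
Log2 fold change of FGF1 over vehicle with its SE in COP, OPC and oligodendrocytes of the same 12 mice for 13 genes, where a class is left out if the gene was not tested there. Fabp5, S100b, Tubb2b and Map1b lie above 0 in COP and at or below the COP value in the other classes, and Cntn1 and Anks1b lie below 0 in COP and above 0 in the others.

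Against oligodendrocytes, 48 of 4171 genes (1.15%) differed in their effect, 26 (0.623%) more positive and 22 (0.527%) more negative in COPs. Cntn1 (difference -1.51 ± 0.205, edgeR FDR 9.89e-07) and Anks1b (-1.73 ± 0.250, FDR 3.61e-06) fell in COPs, whereas their log2 fold changes in oligodendrocytes were 0.41 (FDR 0.0750) and 0.42 (FDR 0.0390). The level in clusters 2, 11 and 12 was 133, 206 and 159 CPM for Cntn1 and 173, 286 and 196 CPM for Anks1b. Against cluster 2 alone, the differences were -1.48 (FDR 3.43e-05) and -1.50 (FDR 2.04e-04). Mif, a cytokine-like factor, differed by 1.00 ± 0.167 (FDR 1.50e-04). It fell in oligodendrocytes by 0.80 on the log2 scale (FDR 0.00296) and was at 0.22 in COPs, where it was not called. In the comparison for all of these genes, clusters 2, 11 and 12 held 1799, 1212 and 223 cells of FGF1 mice and 5610, 166 and 952 of vehicle mice, and the Mif level in them was 468, 281 and 696 CPM. Against cluster 2 alone, the difference for Mif was 0.86 (FDR 0.00173). Mt2 differed by -0.92 ± 0.160 (FDR 2.62e-04), with -0.01 in oligodendrocytes. Tmem2, a hyaluronidase at the cell surface, differed by -3.66 ± 0.611 (FDR 1.47e-04), but its mice overlapped in COPs (2.01 to 59.7 CPM after FGF1, 0 to 396 after vehicle, FDR 0.239) and it was too low to be tested in oligodendrocytes alone. Tmem2 passed the filter only through cluster 9 (38.0 CPM, against 2.78, 7.83 and 1.98 in clusters 2, 11 and 12), so nothing is concluded from its difference. Of 37 tested cytoskeleton genes, the difference against oligodendrocytes was called for 3 in the positive and 1 in the negative direction. Tubb2b (1.43, FDR 5.08e-04) and Actg1 (0.72, FDR 0.00116) were among the former, whereas the difference for Actg1 against OPCs was not called (0.28, FDR 0.323). The difference against oligodendrocytes was not called for Map1b (0.58, FDR 0.0578), Tuba1a (0.42, FDR 0.125) or Mapt (0.23, FDR 0.623). In both interaction tests the 5 leading genes kept their call in every alternative run that could test them. These runs were DESeq2, RLE scaling, the limit of 20%, 1 mouse left out, genes filtered over both classes and, for oligodendrocytes, cluster 2 alone. The interactions were not run with all mice cut to 16 cells or without the low-count filter, so their hold there is unknown.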

How the data were processed

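Whole cells of Day 5 were used; nuclei were not used here. The authors aligned the libraries to GRCm38 with Cell Ranger 1.2, removed doublets with Scrublet before deposit, removed neurons and clusters with 50% of cells from 1 sample, and deposited whole-number UMI counts per gene and cell with metadata (mouse, batch, cluster at resolution 0.6). Multi-gene reads are not counted, and no doublet caller was run here. All cells were kept, of which 24 COPs lie above 20% mitochondrial or ribosomal UMIs, the limit in the study's methods.

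Counts were summed per mouse and class, with at least 10 cells per mouse. edgeR 4.0.16 was run with its quasi-likelihood F-test, TMM scaling and filterByExpr, on FGF1 against vehicle without covariates, and calls are Benjamini-Hochberg FDR below 0.05 over all genes tested. SEs follow from the F statistic. Interactions had the mouse as a block and were limited to the 4171 genes that passed the filter in cluster 9, a limit set after a simulated test. DESeq2 1.42.0 was an alternative. Shares were compared by exact permutation over mice. Each mouse is 1 animal. Levels are CPM scaled as in the fits.

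Named genes were the 12 highest increases and decreases among calls with a mean of at least 20 CPM, the 5 markers, called list members, the 2 highest members of each list, and the 5 genes of smallest p of each interaction. Called genes outside this rule (Dynll1), the class levels beyond it and the promoters were chosen after their values were seen. The members, lists and tests were chosen with earlier results of these data known. Coordinates are from the GENCODE annotation of GRCm38, and promoters from RefSeq. Counting intervals cover counting error only. A few results are not reported here. Python 3.11.15 and scanpy 1.11.5 were used for clustering.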

Additional observations from a re-analysis of the deposited data

Results flagged for a closer look

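Of 94 groups of 6 mice tested for a mouse that stands apart, 6 held one, and chance flags about 1 in 20 groups. In FGF1 mice these were Fabp5 in mouse 21 (1039 CPM, the lowest), Cldn10 in mouse 28 (49.3 CPM, the highest), Tnk2 in mouse 6 (29.9 CPM, the lowest), Map1b in mouse 10 (1856 CPM, the highest) and Mt1 in mouse 10 (1354 CPM, the lowest). In vehicle mice it was Arhgef3 in mouse 29 (184 CPM, the highest), a mouse with 16 COPs.

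The FGF1 effect in COPs minus that in OPCs was tested and differed, on the log2 scale, for Tubb2b (1.05), Fabp5 (1.18), S100b (0.83), Gpm6a (-1.23) and Cntn1 (-1.30). Minus that in oligodendrocytes it differed for Anks1b (-1.73), Cntn1 (-1.51), Tmem2 (-3.66, too low to be tested in oligodendrocytes alone), Mif (1.00) and Mt2 (-0.92). Their errors and adjusted p-values stand beside them above.

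Cluster 17, a cluster of 115 cells that entered no comparison, held 104 cells from FGF1 mice, 7 to 33 per mouse, and 0 to 3 cells per vehicle mouse.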

How the results depend on the processing

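The direction of the COP share held in every alternative run, with 6.54 points over all cells, 48.1 over clusters 9 and 5, 24.7 without cells above 20% mitochondrial or ribosomal UMIs, 24.6 within batches, and 22.0 to 26.7 with 1 mouse left out. The 52 calls in COPs became 403 without the low-count filter (360 higher and 43 lower of 14567 genes, with a median log2 fold change of 0.32 over all genes), 92 with a mean of at least 20 CPM, and 6 with 16 cells per mouse, where 443 genes were tested. They were 52 (27 higher, 25 lower) with batch as a term and 49 without cells above 20%. With 1 mouse left out they ranged from 22 to 99, where leaving out an FGF1 mouse also cut the genes tested to 1897 to 1912 and leaving out a vehicle mouse raised them to 5879 to 5940. The counts were 23 without FGF1 6, 22 without FGF1 7, 26 without FGF1 10, 27 without FGF1 21, 29 without FGF1 36 and 99 without vehicle 35. These alternatives were chosen after seeing the data: with the same 4171 genes the range was 25 to 77 (32 without FGF1 7, 25 without vehicle 20, 32 without vehicle 22, 28 without vehicle 25), without vehicle 27 and 29, which have under 20 COPs, there were 66, and the interaction filter was widened and oligodendrocytes were limited to cluster 2. The OPC interaction count of 31 became 92 with genes filtered over both classes and ranged from 26 to 59 with 1 mouse left out (59 without vehicle 27). The oligodendrocyte count of 48 became 181 with that filter and 51 against cluster 2 alone, and ranged from 24 to 149 (24 without FGF1 10, 26 without FGF1 6, 29 without FGF1 7, 30 without FGF1 21, 31 without FGF1 28, 27 without FGF1 36, 95 without vehicle 22, 74 without vehicle 27 or 29, 149 without vehicle 35). Of 54 gene results, 19 kept their side of the threshold in every alternative that could test them. They include the 5 leading genes of each interaction, which were run in fewer alternatives, and Tmem2, which was not called in COPs. The others were Tubb2b, Tuba1a, Cdk4, Rab33a, Arhgef3, Anks1b, Gpm6a and Cntn1. Of the 54 results, 1 changed direction. This was Gpr17, at 0.21 without the low-count filter, 0.10 and 0.15 without vehicle 22 or 35, and 0.0147 and 0.0468 without them on the same genes, within a range of -0.30 to 0.15 with 1 mouse left out. Apart from the changed numbers of genes, cells and mice, the cause of these shifts was not tested. Mice were paired by batch in the fit with that term and in the shares within batches. Beyond this, no paired analysis was possible because the whole-cell groups share no replicate numbers. Precision is limited by the vehicle mice, with 16 to 51 COPs each, and a gene below the filter says nothing about its change.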

Other observations

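Ptn, the growth factor pleiotrophin that OPCs release, was at 271 ± 53.4 CPM after FGF1 and 551 ± 343 after vehicle (log2 -1.14, edgeR FDR 0.0413), and Sparc, a matrix protein, at 714 ± 106 and 1076 ± 228 CPM (log2 -0.60, FDR 0.0319). Both were lower in cluster 9 than in OPCs and astrocytes, and their groups overlapped. Bfsp2, a beaded filament protein among the leading genes of cluster 9, was at 562 ± 44.5 and 327 ± 88.9 CPM (log2 0.72, FDR 0.0241), without overlap. The ranking of leading genes was pooled over cells mostly from FGF1 mice, so it can lean towards genes higher after FGF1. Pdcd4, an inhibitor of translation, was at 997 ± 219 and 639.5 ± 126 CPM (log2 0.66, FDR 0.0327), and Eef1a1, a translation elongation factor, at 2755 ± 313 and 1954 ± 181 CPM (log2 0.50, FDR 0.0319). Cyp2j6, Polr1d, Taldo1 and Sept7 were also higher, and Ubn2, Pgpep1, Add1 and Cpox lower. These genes were picked from the calls after their values were seen.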
